A study of Mus musculus with 128 samples.

Results

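The messages of 10 genes of one-carbon metabolism were followed through the first cleavages of mouse embryos that lacked or carried the maternal copy of the histone lysine demethylase gene Kdm4a. The 10 genes are Bhmt, Bhmt2 and Dmgdh of the betaine arm, Mat2a, Mat2b, Ahcy and Mtr of the methionine cycle, and Mthfd1, Mthfd2 and Shmt2 of the folate arm. They were taken by name from a table of 41300 genes, and they were chosen with their levels in all 8 groups of stage and genotype known. Their levels and differences are therefore given as descriptions with no p-value, and counts of how many of them passed a threshold describe them and test nothing. Single MII oocytes, the mature eggs arrested before fertilization, and single embryos of 2, 4 and 8 cells from C57BL/6 mice were sequenced, with 16 labelled libraries in each group. The embryos were sampled 1.5, 2.5 and 3.5 days after fertilization. The wildtype groups carry the genotype label WT (m+/p-) and the knockout groups the label Kdm4a (m-/p-). Sperm of Kdm4a knockout males fertilized the oocytes of both genotypes, so both sets of embryos lacked the paternal copy and they differed in the maternal one. The oocytes carry the same genotype notation although they were not fertilized. Both genotypes were collected together, at the time when control embryos had reached a stage. The labels do not say which oocytes came from one mother.

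One-carbon metabolism passes single carbon units between serine, folate, homocysteine and S-adenosylmethionine, the methyl donor of histone and DNA methyltransferases. S-adenosylmethionine is made from methionine by methionine adenosyltransferase. The methyl group is then given away, S-adenosylhomocysteine is cleaved to homocysteine, and homocysteine is methylated back to methionine either by Mtr with a methyl group from folate or by Bhmt with a methyl group from betaine. Betaine is abundant in preimplantation embryos and serves there both as an osmolyte and as a methyl donor.

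Bhmt, Bhmt2 and Dmgdh lie side by side on mouse chromosome 13. In the GENCODE M21 annotation of mm10, Bhmt (ENSMUSG00000074768.6) spans chr13:93616675-93637961 on the minus strand and Bhmt2 (ENSMUSG00000042118.7) spans chr13:93655720-93674302 on the minus strand, 17758 bases away. Dmgdh (ENSMUSG00000042102.7) spans chr13:93674433-93752833 on the plus strand. Bhmt2 and Dmgdh point away from each other, and the 130 bases between their starts are shown because the starts of both genes lie at their ends, and the 2 genes are compared below. Whether an element inside them acts on either gene was not tested. The stretch chr13:93674303-93674432 is given from the plus strand of GRCm38.p6, the assembly behind mm10, as in RefSeq, with CCGCCC in capitals, which reads GGGCGG on the other strand.
Bhmt2 to Dmgdh: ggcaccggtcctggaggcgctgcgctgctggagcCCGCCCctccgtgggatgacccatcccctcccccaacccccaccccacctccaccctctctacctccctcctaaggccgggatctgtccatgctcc
This stretch held 6 CpG dinucleotides and 70.8% G and C. GGGCGG occurred in the promoter windows of 7 of the 10 genes and of 35.7% of 32851 RefSeq promoter windows, each running from 250 bases before to 50 bases after a start, so its presence is common.

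The Bhmt promoter is shown because Bhmt had the largest ratio of 4-cell to 2-cell mean level among the 10 genes, 236 in wildtype embryos. Its RefSeq window held AAGGTCA at 2 places, at 73 and 48 bases before the RefSeq start at position 93637758. No other window of the 10 genes held this motif. AAGGTCA occurred in 4.72% of all promoter windows and the longer TCAAGGTCA in 0.423%, each searched on both strands. The shorter of these is part of the longer one. These motifs were chosen after the sequence had been read. The 2 stretches of 30 bases below are given on the minus strand from GRCm38.p6, with AAGGTCA in capitals, at chr13:93637814-93637843 and chr13:93637789-93637818. They lie downstream of the start of the longer GENCODE transcript, which is 203 bases upstream of the RefSeq start.
Bhmt stretch 1: tgaccccagatcAAGGTCAgaggcctgcta
Bhmt stretch 2: tgctattggacaAAGGTCAgtgtgcagacg
The first match is the one that belongs to TCAAGGTCA. TATAAA was absent from the Bhmt window and present in that of Mat2a, 32 bases before its start, and in 13.6% of all windows. All 10 genes had a promoter window in the RefSeq table.

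Of 128 libraries, 127 were used. The 8-cell knockout library of replicate 4 held 419 counts and was left out of every value. Totals of the others ran from 528377 to 4657857 counts per library. Levels are given as CPM, counts scaled to a common library total. Kdm4a stood at 10.9 ± 3.05 CPM in wildtype and 1.27 ± 0.904 CPM in knockout oocytes, and at 15.1 ± 4.81 and 2.65 ± 1.83 CPM in 2-cell embryos (SD, n = 16 each). At 4 cells it was 4.59 ± 3.58 and 1.76 ± 1.47 CPM (n = 16 each), with ranges of 0 to 11.1 and 0 to 4.71 CPM. At 8 cells it was 1.31 ± 1.16 CPM (n = 16) and 1.99 ± 2.22 CPM (n = 15). In oocytes the lowest wildtype value was 4.60 CPM and the highest knockout value 3.76 CPM. At 2 cells these were 5.09 and 6.02 CPM, so the ranges overlapped. Kdm4a thus could not check the label of every 2-cell embryo, or of a single embryo at 4 or 8 cells. Markers set 3 libraries apart from their groups. The 8-cell knockout embryo of replicate 7 had a summed level of 10 oocyte markers of 2242 CPM, against 20.9 to 62.2 CPM in the other 8-cell knockout embryos, and 16.8 CPM of 10 markers of the later embryo, against 167 to 434 CPM. The 4-cell wildtype embryo of replicate 11 had 1421 CPM of 10 markers of the 2-cell stage, against 19.4 to 367 CPM in the other 4-cell wildtype embryos. The knockout oocyte of replicate 15 had 1439 CPM of the oocyte markers, against 5063 to 11263 CPM in the other knockout oocytes, and the fewest genes detected in its group, 11139. Some values that rest on these libraries are given with and without them, and the others include them. Marker sums also differed between genotypes, and the medians at 4 cells are given below with Bhmt. Median sums of the 2-cell stage list were 2707 CPM in wildtype and 1448 CPM in knockout 2-cell embryos, and those of the oocyte list were 5330 and 8068 CPM in oocytes. Their part in the genotype differences at these stages was not tested. Markers of liver, the organ in which Bhmt is best known, summed to at most 12.7 CPM in any 4- or 8-cell embryo, and those of cumulus and granulosa cells to at most 16.5 CPM.

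Bhmt, betaine-homocysteine methyltransferase, was close to absent in oocytes and 2-cell embryos and high in 4- and 8-cell embryos. In wildtype oocytes no count was seen in any of 16 libraries, which allows at most 0.796 to 1.41 CPM per library (3 counts of its total). In knockout oocytes 1 of 16 libraries held a single count. In 2-cell embryos Bhmt ranged from 0 to 5.51 CPM with a median of 1.61 CPM in wildtype, and from 0 to 7.86 CPM with a median of 0.897 CPM in knockout. These 2-cell values lie at a few counts per embryo, and the genotypes overlapped over almost their whole range.

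In 4-cell wildtype embryos the lowest value of Bhmt was 23.1 CPM, the median 471 CPM and the highest 706 CPM. In 4-cell knockout embryos the lowest was 43.3 CPM, the median 194 CPM and the highest 362 CPM. All 16 knockout embryos lay below the wildtype median, and 12 of 16 wildtype embryos lay above the highest knockout embryo, but the ranges overlapped. The means were 447 ± 165 and 192 ± 96.8 CPM (SD, n = 16 each), with a fitted log2 fold change of knockout over wildtype of -1.21 (SE 0.28). The lowest wildtype value belongs to replicate 11. Without that embryo the wildtype embryos ran from 274 CPM upward with a mean of 476 ± 124 CPM (n = 15), and the log2 fold change was -1.29. Within replicates 1 to 8 the log2 fold change was -1.22, and within replicates 9 to 16 it was also -1.22. CPM are shares of the messages in a whole embryo, so fewer cells that express a gene and less of its RNA per cell cannot be told apart.

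The 3 knockout 4-cell embryos with the highest sums of 2-cell stage markers were replicates 6, 3 and 11, with 341, 338 and 167 CPM. Their Bhmt levels were 79.7, 124 and 43.3 CPM, all in the lower part of the knockout range. Replicates 9, 14 and 1, with lower marker sums of 75.0, 95.3 and 112 CPM, also stood there. Their Bhmt levels were 86.5, 94.0 and 123 CPM. The wildtype embryo of replicate 12 had a marker sum of 367 CPM and a Bhmt level of 601 CPM. Median marker sums of the 2-cell stage were 76.5 CPM in wildtype and 86.1 CPM in knockout 4-cell embryos, and those of the oocyte list were 68.9 and 113 CPM. The part of developmental timing in the genotype difference was not tested.

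At 8 cells Bhmt ran from 462 to 1281 CPM with a median of 671 CPM in wildtype embryos. In knockout embryos it ran from 0 to 1090.1 CPM with a median of 449 CPM, and 11 of 15 lay below the wildtype median. The 0 came from replicate 7. The means were 725 ± 199 (n = 16) and 496 ± 257 CPM (n = 15), with a log2 fold change of -0.60 (SE 0.33). Without replicate 7 the knockout mean was 531 ± 225 CPM (n = 14) and the log2 fold change was -0.48. From 4 to 8 cells the mean level was 1.62 times as high in wildtype and 2.58 times as high in knockout embryos. The knockout mean at 8 cells thus lay close to the wildtype mean at 4 cells, with wide overlap of the single embryos.

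**Figure D1:**
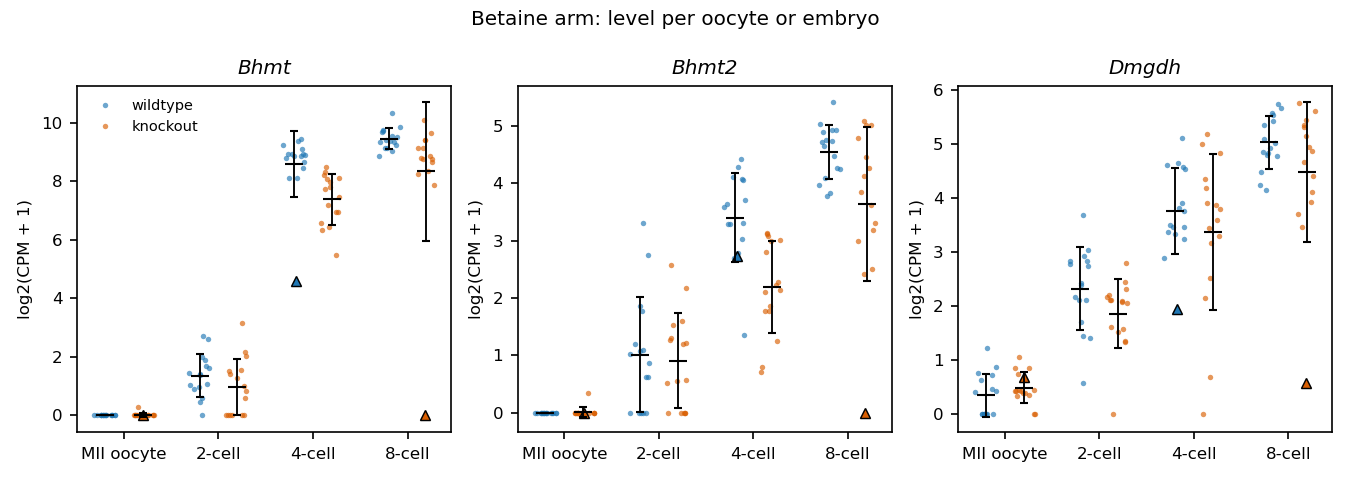
Levels of Bhmt, Bhmt2 and Dmgdh on a log2(CPM + 1) axis in each of 127 oocytes or embryos, by stage, wildtype in blue and knockout in orange. Bars give the mean and SD of the log2 values over all plotted libraries. Triangles mark knockout oocyte replicate 15, 4-cell wildtype replicate 11 and 8-cell knockout replicate 7. Bhmt is at or near 0 up to 2 cells and high from 4 cells on, and knockout 4-cell embryos sit below the wildtype median of Bhmt and Bhmt2.

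Bhmt2, the neighbouring paralog that methylates homocysteine with a methyl group from S-methylmethionine, followed Bhmt at a far lower level. It was at 0 in all 16 wildtype oocytes and at a median of 0.926 CPM in wildtype and 0.903 CPM in knockout 2-cell embryos. In 4-cell wildtype embryos Bhmt2 ran from 1.57 to 20.3 CPM with a median of 9.91 CPM. In 4-cell knockout embryos it ran from 0.631 to 7.73 CPM with a median of 3.55 CPM. All 16 knockout embryos lay below the wildtype median, and the log2 fold change was -1.35 (SE 0.33), or -1.39 without wildtype replicate 11. The lower end of both ranges overlapped, and it rests on 1 or a few counts per embryo.

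At 8 cells Bhmt2 ran from 12.8 to 41.7 CPM in wildtype and from 0 to 33.0 CPM in knockout embryos, with medians of 24.7 and 13.4 CPM and a log2 fold change of -0.61 (SE 0.32). The 0 again came from replicate 7, without which the log2 fold change was -0.50. Per kilobase of gene model, Bhmt stood at 291 and Bhmt2 at 9.52 CPM in wildtype 8-cell embryos. The per-library ratio of Bhmt to Bhmt2 per kilobase had a median of 38.4 in wildtype and 35.7 in knockout 4-cell embryos, and of 31.8 and 32.5 at 8 cells. The pair thus stood in much the same proportion in both genotypes although both were lower in knockout 4-cell embryos.

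Dmgdh, the mitochondrial dimethylglycine dehydrogenase that takes up the dimethylglycine left by the Bhmt reaction, stood at like levels in both genotypes at 4 cells. At 2 cells its medians were 4.29 CPM in wildtype and 3.22 CPM in knockout embryos, and 14 of 16 knockout embryos lay below the wildtype median, with overlapping ranges and too few counts to be fitted. At 4 cells it ran from 2.82 to 33.7 CPM with a median of 11.4 CPM in wildtype and from 0 to 35.6 CPM with a median of 11.9 CPM in knockout 4-cell embryos. Of 16 knockout embryos, 8 lay below and 8 above the wildtype median, and the log2 fold change was -0.14 (SE 0.39). At 8 cells the medians were 30.3 CPM in wildtype and 28.3 CPM in knockout embryos, with a log2 fold change of -0.32 (SE 0.28). Dmgdh shares the printed stretch between the starts with Bhmt2, and its log2 fold change at 4 cells stands beside -1.35 for Bhmt2. Whether the fold changes of Bhmt2 and Dmgdh differ was not tested.

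Counts at this locus need care on 2 points. The antisense gene Gm15622 lies inside Bhmt at chr13:93625382-93628633 on the plus strand. It stood at 45.1 ± 18.2 CPM in wildtype and 18.8 ± 9.88 CPM in knockout 4-cell embryos, and at 75.0 ± 27.6 and 45.7 ± 29.2 CPM at 8 cells. The sources used here do not give the strand setting of the read counting, so reads of Bhmt and of Gm15622 cannot be told apart. Gm5096, a gene on another chromosome that matches Bhmt over 545 bases at 99.6% identity, stood at 8.77 ± 4.37 and 3.51 ± 2.02 CPM in the same 4-cell groups. Fractions stood in 75.0% of the non-zero Bhmt values, and how they arose was not tested. The antisense gene AW495222 inside Dmgdh stood at 0.772 ± 0.709 and 0.766 ± 0.663 CPM in the 4-cell groups.

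The nearest protein-coding genes on either side of the cluster differed in their patterns. Jmy, on the far side of Bhmt, stood at 6.87 ± 5.93 CPM in wildtype 2-cell, 95.6 ± 37.1 CPM in wildtype 4-cell and 96.9 ± 32.3 CPM in knockout 4-cell embryos. Homer1, next to Jmy, stood at 23.6 ± 11.6, 9.31 ± 8.67 and 13.4 ± 9.55 CPM in these groups. Arsb, which follows Dmgdh, stood at 11.3 ± 3.54, 0.605 ± 0.768 and 1.38 ± 2.26 CPM. Lhfpl2, the next one, stood at 5.96 ± 3.73, 1.52 ± 1.86 and 0.937 ± 1.73 CPM. In knockout 2-cell embryos Jmy stood at 3.09 ± 1.86 CPM. Homer1, Arsb and Lhfpl2 stood at 19.8 ± 5.91, 9.92 ± 2.95 and 6.46 ± 3.53 CPM there. Jmy was higher at 4 cells than at 2 cells, as the 3 genes of the cluster were. Its 4-cell means were alike in both genotypes, as those of Dmgdh were.

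Mat2a encodes the catalytic subunit of methionine adenosyltransferase outside the liver, and Mat2b the subunit that regulates it. Their levels ran in opposite directions between 2 and 4 cells. Mat2a ran from 96.4 to 183 CPM in wildtype and from 96.6 to 159 CPM in knockout oocytes. In wildtype 2-cell embryos it ran from 43.9 to 244 CPM with a median of 81.0 CPM, and in knockout from 15.1 to 116 CPM with a median of 63.2 CPM. At 2 cells 14 of 16 knockout embryos lay below the wildtype median, with a log2 fold change of -0.73 (SE 0.25) and overlapping ranges.

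In 4-cell embryos Mat2a ran from 624 to 2455 CPM with a median of 1709 CPM in wildtype and from 696 to 2051 CPM with a median of 1450.0 CPM in knockout. The 4-cell range lay wholly above the 2-cell range in both genotypes, with log2 fold changes of 3.76 (SE 0.24) and 4.29 (SE 0.25). Between genotypes the 4-cell difference was -0.20 (SE 0.16) and the 8-cell difference -0.19 (SE 0.25). The lowest wildtype value at 4 cells, 624 CPM, came from replicate 11. The lowest knockout value at 8 cells, 15.4 CPM, came from replicate 7, and the next lowest was 769 CPM.

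Mat2b was high in the oocyte, with 2589.7 to 4274 CPM in wildtype oocytes and a knockout range of 2238 to 4114 CPM. The 2238 CPM came from replicate 15, and the next lowest knockout oocyte stood at 3544 CPM. Of 16 knockout oocytes, 15 lay above the wildtype median, with a log2 fold change of 0.12 (SE 0.06), or 0.16 without replicate 15. In 2-cell embryos it ran from 1302 to 3125 CPM in wildtype and from 2575 to 3863 CPM in knockout. All 16 knockout embryos lay above the wildtype median, 8 lay above the highest wildtype embryo, and the log2 fold change was 0.48 (SE 0.12). In 4-cell embryos it ran from 269 to 544 CPM in wildtype and from 409 to 930 CPM in knockout. Again all 16 knockout embryos lay above the wildtype median, 11 lay above the highest wildtype embryo, and the log2 fold change was 0.67 (SE 0.11). The knockout level of Mat2b was thus the higher one at both stages, although the ranges overlapped.

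At 8 cells Mat2b ran from 147 to 347 CPM in wildtype and from 87.7 to 2382 CPM in knockout embryos. The fitted log2 fold change was 1.20 (SE 0.42), but it rested on the 2382 CPM of replicate 7. Without that embryo the knockout mean was 257 ± 102 CPM (n = 14), beside 241 ± 53.0 CPM in wildtype (n = 16), and the log2 fold change was 0.07. Per kilobase of gene model, the ratio of Mat2a to Mat2b in single libraries had a median of 0.0244 in wildtype and 0.0225 in knockout oocytes. The ratio was below 1 in every oocyte and every 2-cell embryo. At 4 cells its median was 2.72 in wildtype, where 15 of 16 embryos were above 1, and 1.47 in knockout, where 12 of 16 were above 1. At 8 cells the medians were 4.21 and 3.92, and 14 of 15 knockout embryos were above 1. The exception, replicate 7, stood at 0.00448, which is below the range of wildtype oocytes. The part in the 4-cell difference of oocyte RNA still present, for which the oocyte marker medians above give values, was not tested.

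**Figure D2:**
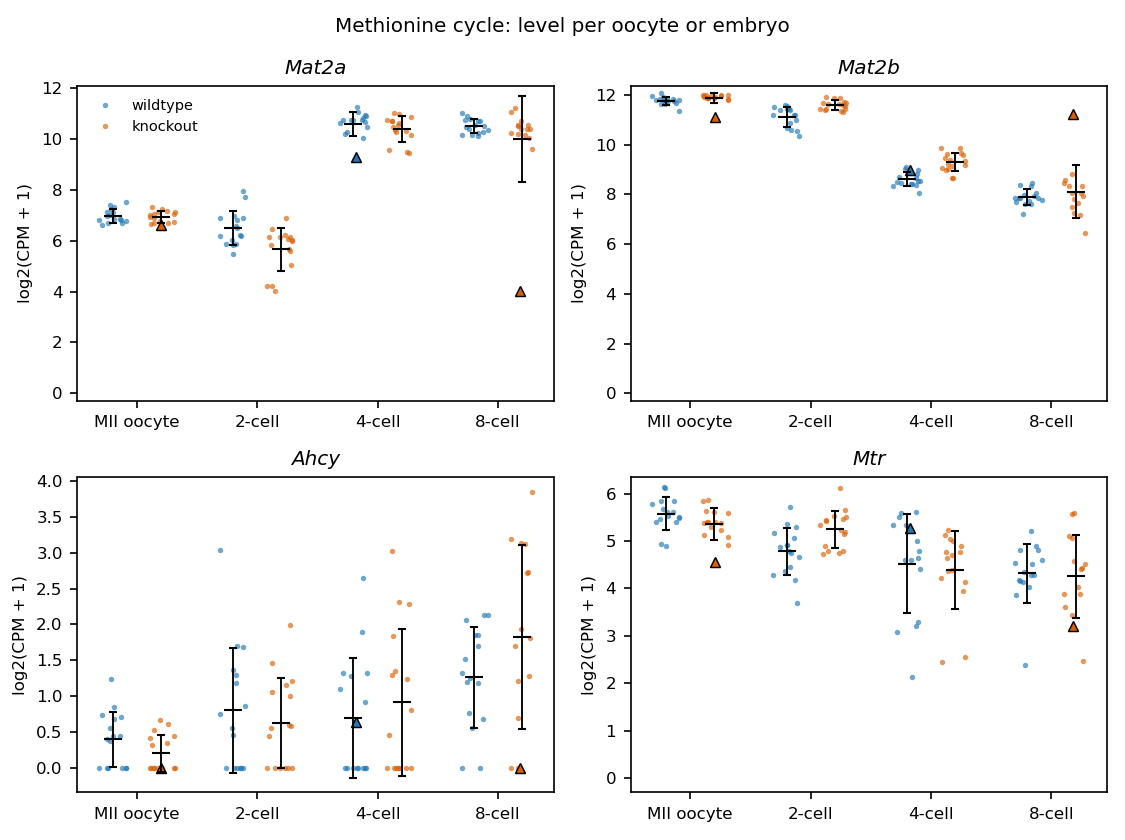
Levels of Mat2a, Mat2b, Ahcy and Mtr on a log2(CPM + 1) axis in each oocyte or embryo, by stage, wildtype in blue and knockout in orange. Bars give the mean and SD of the log2 values, and triangles mark knockout oocyte replicate 15, 4-cell wildtype replicate 11 and 8-cell knockout replicate 7. Mat2a is higher and Mat2b lower from 4 cells on, and knockout embryos of 2 and 4 cells all sit above the wildtype median of Mat2b.

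Ahcy, the only enzyme known to cleave S-adenosylhomocysteine, was close to the detection limit throughout. Its means were between 0.174 and 1.66 CPM in 7 of the 8 groups and 3.95 ± 3.95 CPM in knockout 8-cell embryos. Of 16 wildtype 4-cell embryos, 8 held no count, and the highest stood at 5.28 CPM. Gm4737 on chromosome 16, a coding gene that matches Ahcy over 2083 bases at 99.7% identity, stood at 0.126 to 0.947 CPM in group means. Reads that fit both, or the Ahcy pseudogene Gm9826, which was not analysed here, can be split or lost in counting, so the low level of Ahcy is uncertain. Ahcy passed the count filter in no comparison and has no fitted fold change.

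Mtr, the vitamin B12-dependent methionine synthase that takes its methyl group from folate, was highest on average in wildtype oocytes. It ran from 28.8 to 69.5 CPM in wildtype oocytes and from 4.25 to 36.2 CPM in wildtype 8-cell embryos. At 2 cells the medians were 27.6 CPM in wildtype and 38.1 CPM in knockout embryos, 12 of 16 knockout embryos lay above the wildtype median, and the log2 fold change was 0.52 (SE 0.17). The ranges overlapped, and at 4 and 8 cells the log2 fold changes were -0.23 (SE 0.30) and 0.06 (SE 0.26). Per kilobase of gene model, Bhmt stood at 0.762 and Mtr at 3.38 CPM in wildtype 2-cell embryos, and at 180 and 3.25 CPM in wildtype 4-cell embryos. The betaine route thus had the lower message level before 4 cells and the higher one from then on. In knockout 4-cell embryos the values were 77.2 CPM for Bhmt and 2.72 CPM for Mtr per kilobase.

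Among the folate genes, the cytosolic enzyme gene Mthfd1 and the mitochondrial enzyme genes Mthfd2 and Shmt2 had opposite courses. Mthfd1 encodes the trifunctional enzyme that interconverts one-carbon forms of folate in the cytosol. It ran from 2.93 to 14.6 CPM in wildtype oocytes, from 2.47 to 19.3 CPM in wildtype 2-cell embryos and from 8.28 to 72.7 CPM in wildtype 4-cell embryos. In knockout 2-cell embryos Mthfd1 ran from 4.17 to 33.1 CPM with a median of 13.9 CPM, beside a wildtype median of 8.72 CPM. There, 11 of 16 knockout embryos lay above the wildtype median, the ranges overlapped, and the log2 fold change was 0.76 (SE 0.25). At 4 and 8 cells the differences were -0.06 (SE 0.25) and -0.12 (SE 0.22).

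Mthfd2, a mitochondrial methylene-tetrahydrofolate dehydrogenase, ran from 171 to 304 CPM in wildtype and from 191 to 301 CPM in knockout 2-cell embryos. In 4-cell embryos it ran from 3.001 to 22.3 CPM in wildtype and from 2.10 to 32.1 CPM in knockout. The 4-cell ranges lay wholly below the 2-cell ranges, with log2 fold changes of -4.71 (SE 0.22) and -4.51 (SE 0.21). Shmt2, the mitochondrial enzyme that moves the serine carbon onto folate, ran from 6.80 to 37.3 CPM in wildtype and from 16.6 to 58.9 CPM in knockout 2-cell embryos. At 4 cells it was at 0 in 8 of 16 wildtype and 7 of 16 knockout embryos, and its highest values were 1.69 and 5.96 CPM. Its log2 fold changes were -5.86 (SE 0.45) and -5.13 (SE 0.42), again with no overlap between stages.

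Per kilobase, the ratio of Mthfd2 to Mthfd1 in single libraries had a median of 41.1 in wildtype and 28.9 in knockout 2-cell embryos, and it was above 1 in all of them. At 4 cells the medians were 0.413 and 0.621, and 14 of 16 wildtype and 13 of 16 knockout embryos were below 1. At 8 cells the medians were 0.462 and 0.564. Replicate 7 of the 8-cell knockout had a ratio of 34.2, with 63.5 CPM of Mthfd2 and 12.03 CPM of Shmt2, both the highest of its group. The crossing of Mthfd1 and Mthfd2 between 2 and 4 cells was seen in both genotypes, and their 4-cell levels overlapped widely between genotypes.

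**Figure D3:**
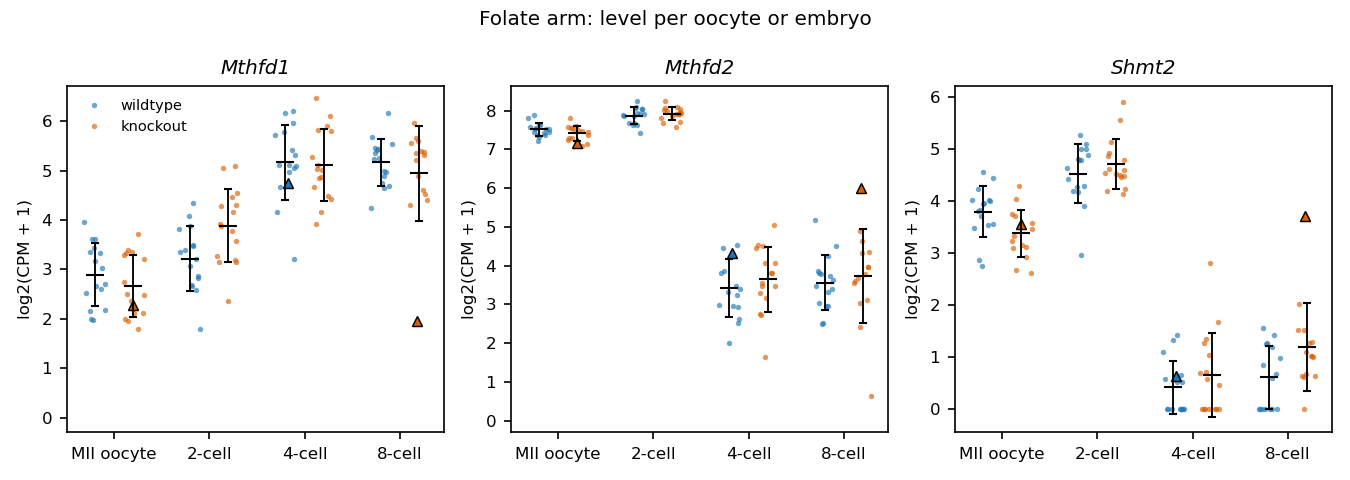
Levels of Mthfd1, Mthfd2 and Shmt2 on a log2(CPM + 1) axis in each oocyte or embryo, by stage, wildtype in blue and knockout in orange, with the mean and SD of the log2 values. Triangles mark knockout oocyte replicate 15, 4-cell wildtype replicate 11 and 8-cell knockout replicate 7. Mthfd2 and Shmt2 are high up to 2 cells and low from 4 cells on, and 8-cell knockout replicate 7 sits above its group for both.

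The 10 genes can be set beside all genes tested, although nothing is read from their counts because their levels chose them. In the edgeR fit, a gene passes at a Benjamini-Hochberg adjusted p under 0.05. A step between stages must also reach a log2 fold change of 1 or more in size. From 2 to 4 cells in wildtype, 9 of the 10 genes passed the count filter, 5 passed upward and 3 downward. Of all genes tested, 74.4% passed, 30.5% upward and 43.9% downward. In knockout, 4 passed upward and 4 downward, beside 75.0% of all genes, 32.6% upward and 42.4% downward. The ranges of the 2 stages did not overlap for 5 of the 9 tested members in each genotype, namely Bhmt, Mat2a, Mat2b, Mthfd2 and Shmt2. Beside this stand 37.4% of all genes tested in wildtype and 38.9% in knockout. This step had a large share of all messages moving, and members went in both directions.

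From the oocyte to 2 cells in wildtype, 2 of 6 tested members passed, both downward, beside 51.1% of all genes, 31.9% upward and 19.2% downward. These were Mat2b at a log2 fold change of -1.01 (SE 0.10) and Mtr at -1.21 (SE 0.15). With scaling by library totals only, which moves the median of all genes by 0.43 at this step, they stood at -0.59 and -0.76, and neither reached the size of 1. With DESeq2, Mat2b stood at -0.90 and also fell short of it. The libraries were made from polyadenylated RNA, so a level is that of the RNA captured. From 4 to 8 cells in wildtype, 2 of 8 passed upward, beside 20.6% of all genes, 9.32% upward and 11.3% downward. They were Bhmt2 at 1.23 (SE 0.32) and Dmgdh at 1.31 (SE 0.35). In knockout, 3 of 8 passed upward at that step, beside 12% of all genes and 8.09% upward.

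By genotype, 4 of 6 tested members passed at 2 cells, beside 17.3% of all genes, 7.25% higher and 10% lower, with Mat2b, Mtr and Mthfd1 higher and Mat2a lower in knockout. At 4 cells 3 of 8 passed, beside 16.4% of all genes, 8.97% higher and 7.46% lower, with Mat2b higher and Bhmt and Bhmt2 lower. In oocytes none of 6 passed, beside 12% of all genes, with 1 at an unadjusted p under 0.05 in edgeR and none called by DESeq2. Without knockout replicate 15, 1 of 6 passed there, Mat2b, with the share of all genes in that setting not given. At 8 cells none of 8 passed, beside 11.6% of all genes, likewise with 1 at an unadjusted p under 0.05 and none called by DESeq2. For no member and at no stage were the wildtype and knockout ranges free of overlap, and among all genes tested this was rare too, at 0.172% at 2 cells and 0.107% at 4 cells. The genotype difference changed past the threshold from the oocyte to 2 cells for 1 of 6 members, beside 3.99% of all genes. This was Mtr, by 0.72 on the log2 scale (SE 0.20). It did so for none of 9 from 2 to 4 cells, beside 15.5% of all genes, with 2 at an unadjusted p under 0.05 in edgeR and none called by DESeq2. Between 4 and 8 cells it did so for none of 8, beside 2.73%, with none at an unadjusted p under 0.05 and none called by DESeq2, and the change was 0.62 (SE 0.44) for Bhmt and 0.74 (SE 0.46) for Bhmt2 on the log2 scale.

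**Figure D4:**
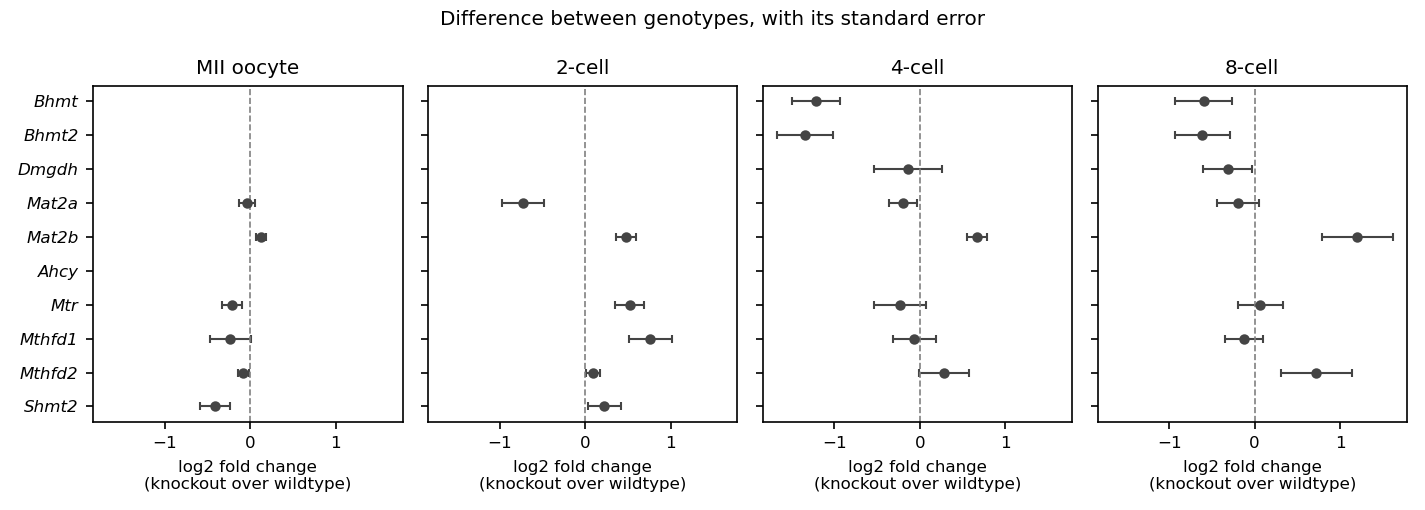
Log2 fold change of knockout over wildtype, with its approximate standard error, for the members that passed the count filter at each stage. Bhmt and Bhmt2 lie near -1.2 and -1.3 at 4 cells, Mat2b lies above 0 at 2 and 4 cells, and its 8-cell value of 1.20 rests on replicate 7. Genes without a point were too low to be fitted.

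A wider list of 53 other one-carbon genes, the network genes, was taken from general knowledge of the pathway and tested over the whole table. The list was drawn up with earlier results of these data known, so it was not chosen blind to them. From 2 to 4 cells in wildtype, 38 of the 53 were tested, and 17 rose and 5 fell, beside 30.5% and 43.9% of all genes. The median log2 fold change of the list was 0.78, against -0.48 over all genes tested. Of 7 genes of serine synthesis and glycine cleavage, 6 rose, while among 11 tested folate genes 3 rose and 2 fell. In knockout 17 rose and 7 fell, beside 32.6% and 42.4% of all genes, with a median of 0.74 against -0.34.

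Gcsh, the lipoyl carrier protein of the glycine cleavage system, rose from 298 to 7801 CPM in wildtype means (log2 fold change 4.45, SE 0.25, edgeR adjusted p = 8.2e-26). Psat1, which makes phosphoserine, rose from 29.9 to 666 CPM (4.22, SE 0.25, adjusted p = 7.6e-25). Odc1, the first enzyme of polyamine synthesis, rose from 134 to 1908 CPM (3.56, SE 0.16, adjusted p = 3.3e-30), and Tyms, thymidylate synthase, from 13.6 to 221 CPM (3.71, SE 0.21, adjusted p = 3.2e-25). Mthfs, which returns folinate to the folate pool, fell from 313 to 7.04 CPM (-5.78, SE 0.27, adjusted p = 5.0e-30). Mat1a, the methionine adenosyltransferase known from liver, fell from 7.42 to 0.513 CPM (-3.90, SE 0.56, adjusted p = 3.0e-09). Apip of the methionine salvage pathway fell as well, by 2.19 on the log2 scale. So did Slc6a20a, an amino acid transporter gene listed here under betaine and choline supply, by 4.42. Of the non-zero values of Mthfs, 88.2% were not whole numbers, and why was not tested.

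From the oocyte to 2 cells in wildtype, 31 of the 53 genes were tested, and 7 rose and 9 fell, beside 31.9% and 19.2% of all genes. Of 4 tested genes of betaine and choline supply, 1 rose and 3 fell. Pemt, which makes phosphatidylcholine by methylation, rose from 0.440 to 10.7 CPM (log2 fold change 4.06, SE 0.44, edgeR adjusted p = 7.5e-13), and Slc44a1 and Slc44a2, which encode choline transporter-like proteins, fell by 2.53 and 2.10 on the log2 scale. Gcsh rose from 1.09 to 298 CPM (7.61, SE 0.51, adjusted p = 2.8e-21). Psat1 and the folate receptor gene Folr1 had no count in any of 16 wildtype oocytes and stood at 29.9 and 7.19 CPM at 2 cells, with adjusted p = 2.1e-18 and 1.4e-10. Slc25a32, the mitochondrial folate carrier gene, fell from 115 to 25.2 CPM (-2.61, SE 0.17, adjusted p = 3.8e-22). From 4 to 8 cells in wildtype 37 were tested, and 5 rose and 3 fell, beside 9.32% and 11.3% of all genes. Cth, the last enzyme of transsulfuration, rose from 234 to 538 CPM (1.31, SE 0.17, adjusted p = 1.0e-08). Atic rose by 1.48 on the log2 scale, and Tyms and Sms by 1.01 and 1.001, just past the size of 1. Both fell short of it with scaling by library totals only and with a filter at 10 CPM, and Sms also without 4-cell wildtype replicate 11. Mtap fell from 66.4 to 17.3 CPM (-1.84, SE 0.38, adjusted p = 9.9e-05), and Slc44a2 fell by 1.55. Mtfmt, the mitochondrial formyltransferase gene, fell by 1.39 (adjusted p = 0.046), a call that was lost without the count filter and without 4-cell wildtype replicate 11. Chdh, which makes betaine from choline in mitochondria, stood at means of 0.123 to 2.63 CPM across the groups, and Slc6a12, a betaine transporter gene, at 0 to 0.401 CPM. Slc6a20a, also listed under betaine and choline supply, stood higher, with means of 23.4 CPM in wildtype oocytes and 9.34 CPM in wildtype 2-cell embryos. Its log2 fold change at that step was -1.72 (SE 0.22), and it fell further from 2 to 4 cells, as given above.

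In oocytes, 24 of the 53 genes were tested by genotype, and 3 were higher and 2 lower in knockout, beside 5.27% and 6.69% of all genes. Apip stood at 157 ± 30.8 CPM in wildtype and 259 ± 61.3 CPM in knockout (log2 fold change 0.74, SE 0.11, edgeR adjusted p = 2.2e-05), with 16 of 16 knockout oocytes above the wildtype median. Mtap, which opens the salvage of methionine from methylthioadenosine, was higher (0.34, SE 0.11, adjusted p = 0.031), as was Dld (0.36, SE 0.12, adjusted p = 0.045). Mthfs stood at 169 ± 50.4 and 103 ± 23.9 CPM (-0.69, SE 0.14, adjusted p = 7.9e-04), with 16 of 16 knockout oocytes below the wildtype median. Atic, of purine synthesis, was lower (-0.63, SE 0.18, adjusted p = 0.018), a call that was lost without the count filter. Without knockout replicate 15 the count was 9 in place of 5, with the share of all genes in that setting not given.

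At 2 cells 29 were tested, and 2 were higher and 3 lower in knockout, beside 7.25% and 10% of all genes. Apip stood at 227 ± 91.4 and 499 ± 84.5 CPM (log2 fold change 1.18, SE 0.15, edgeR adjusted p = 4.8e-07), and the wildtype median was exceeded in 16 of 16 knockout embryos. Adi1, a later enzyme of the same salvage pathway, stood at 13.5 ± 10.3 and 4.85 ± 3.26 CPM (-1.39, SE 0.37, adjusted p = 0.0083), with 15 of 16 below it. Psat1 was lower (-0.93, SE 0.28, adjusted p = 0.020), as was Odc1 (-0.54, SE 0.17, adjusted p = 0.021), with 14 and 13 of 16 knockout embryos below the wildtype median. Sms, spermine synthase, was higher (0.26, SE 0.09, adjusted p = 0.032), a call that was lost when only library totals were used for scaling.

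At 4 cells, where Bhmt and Bhmt2 stood lower, 35 of the 53 were tested, and 2 were higher and 2 lower in knockout, beside 8.97% and 7.46% of all genes. Of the 6 tested genes of the methionine cycle edgeR called none, with 3 at an unadjusted p under 0.05, while DESeq2 called these 3. They are Mtrr (-0.72, SE 0.27 in edgeR), the mitochondrial S-adenosylmethionine carrier gene Slc25a26 (-0.84, SE 0.32) and Ahcyl2 (0.70, SE 0.28), named after their values were seen. Of the 3 tested genes of betaine and choline supply neither tool called any, and none had an unadjusted p under 0.05. Sms stood at 349 ± 145 and 572 ± 220 CPM (log2 fold change 0.70, SE 0.19, edgeR adjusted p = 0.0092), and the wildtype median was exceeded in 15 of 16. Shmt1, the cytosolic counterpart of Shmt2, stood at 45.5 ± 12.5 and 76.1 ± 36.7 CPM (0.72, SE 0.20, adjusted p = 0.012). Mtap stood at 66.4 ± 35.6 and 31.3 ± 22.9 CPM (-1.10, SE 0.30, adjusted p = 0.010), with 15 of 16 below the wildtype median. Gcsh was lower by 0.29 on the log2 scale (SE 0.09, adjusted p = 0.028), with 16 of 16 below it, a call that was lost without the count filter. Without wildtype replicate 11 the count was 7 in place of 4, with the share of all genes in that setting not given.

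At 8 cells 34 were tested, and 2 were higher and 2 lower in knockout, beside 8.55% and 3.02% of all genes. Srm, spermidine synthase, stood at 29.3 ± 10.1 (n = 16) and 14.8 ± 7.45 CPM (n = 15; log2 fold change -1.01, SE 0.24, edgeR adjusted p = 0.0064). Ahcyl2, an Ahcy-like gene, stood at 12.9 ± 5.81 and 24.1 ± 11.2 CPM (0.93, SE 0.28, adjusted p = 0.026). Mthfs was higher (1.10, SE 0.36, adjusted p = 0.040) and Atic lower (-0.86, SE 0.28, adjusted p = 0.043). The calls of Mthfs and Atic were both lost with scaling by library totals only and without the count filter, and that of Mthfs also without replicate 7, with a log2 fold change of 0.68.

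The genotype difference itself changed from the oocyte to 2 cells for 1 of 31 tested network genes, beside 3.99% of all genes. Without knockout oocyte replicate 15 this count was 3, with the share of all genes in that setting not given. From 2 to 4 cells the difference changed for 8 of 38, beside 15.5%. From 4 to 8 cells edgeR called none of 37, beside 2.73% of all genes, with 3 at an unadjusted p under 0.05 and none called by DESeq2.

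**Figure D5:**
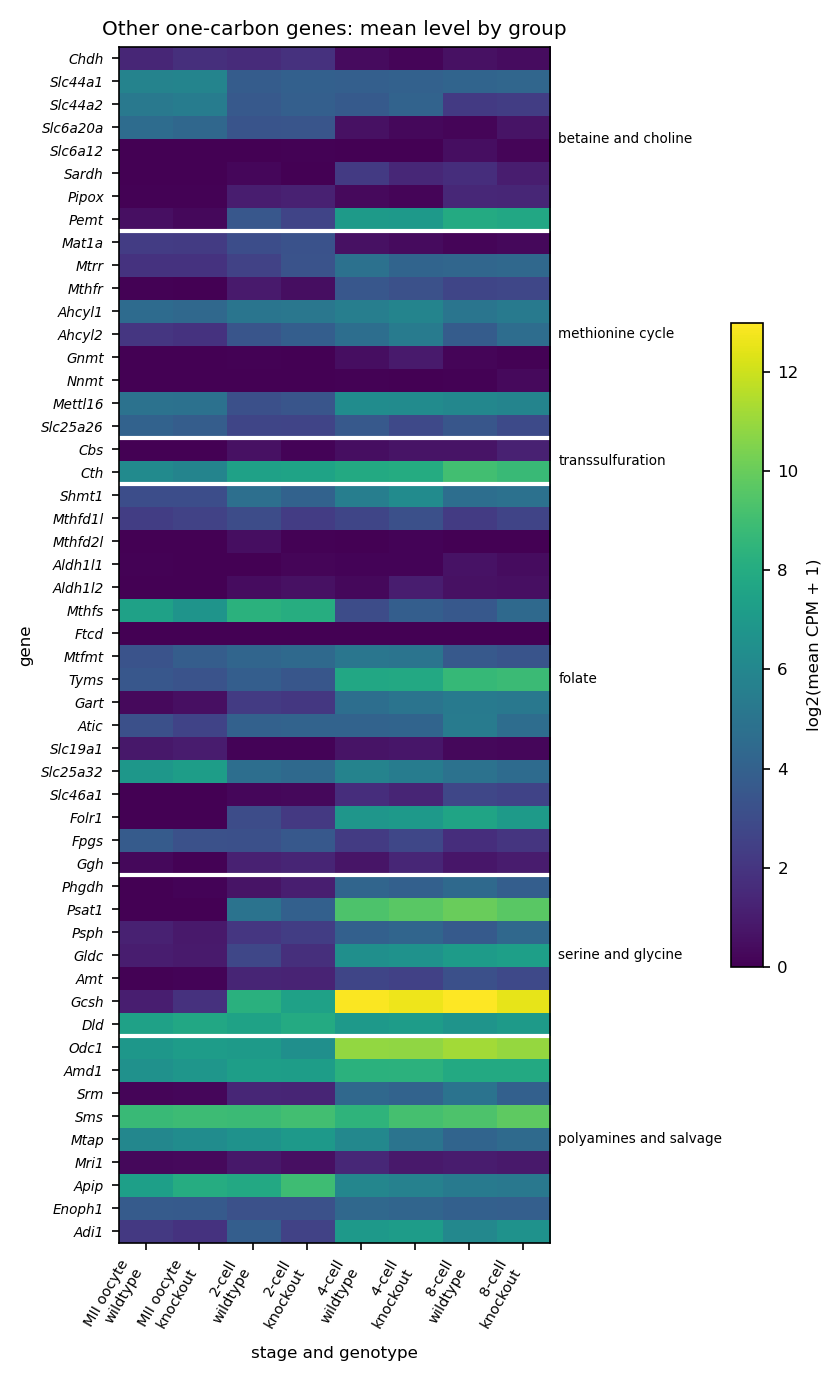
Mean level of the other one-carbon genes as log2(mean CPM + 1), with genes as rows grouped by role and the 8 groups of stage and genotype as columns. The serine and glycine genes Psat1, Gldc and Gcsh are brightest from 4 cells on, and Gcsh is already bright at 2 cells. Mthfs and Apip are brighter up to 2 cells.

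Across the 127 libraries, the gene levels most like that of Bhmt, among 6581 genes that reached a group mean of 20 CPM, were those of Zmpste24, Gabarapl2, Pmm2, Hspa8, Fbxo15 and Rpl31. Their Pearson correlations of log2(CPM + 1) with Bhmt ran from 0.977 to 0.980, and from 0.993 to 0.998 over the 8 group means. The libraries share stage and genotype, so a gene that is high from 4 cells on comes close to Bhmt by that alone. Fbxo15 stood at 4881 ± 1050.5 CPM in wildtype and 4629 ± 1183 CPM in knockout 4-cell embryos, and Hspa8 at 3238 ± 957 and 2439 ± 1015 CPM. The wildtype to knockout ratio of means of Bhmt at that stage was 2.33. Within the 10 genes, the correlation with Bhmt was 0.90 for Bhmt2, 0.88 for Dmgdh, 0.93 for Mat2a and -0.96 for Mat2b. These are descriptions over libraries of all stages, and the choice of the 6 genes changed with the measure of likeness.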

How the data were processed

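Single oocytes and embryos were lysed, amplified with a SMART-Seq kit and made into Nextera XT libraries, per the labels' protocols. The deposited table holds estimated counts, made with Trimmomatic 0.32, STAR 2.5.1a (mm10) and featureCounts 1.5.1, per the submitters' processing notes. Of non-zero values, 30.6% were not whole (tolerance 1e-09). They were rounded, libraries under 100000 counts were left out, and CPM were taken over library totals. edgeR 4.0.16 (R 4.3.3, limma 3.58.1) fitted the quasi-likelihood model with TMM factors and filterByExpr to the 2 genotypes of a stage, and to the 4 groups of adjacent stages for steps. Each SE is approximate, the size of the log2 fold change over the square root of its F statistic. Named are all members, up to 4 called network genes each way by p for each genotype comparison, wildtype step and genotype by step, the 6 genes most like Bhmt and the nearest 2 coding genes on each side of its cluster. One gene named by this rule is not reported here. In simulated 4-cell data of 7478 genes, 163 of 200 genes changed 2- or 4-fold in either direction were recovered, with 5 false calls. Samples were simulated as independent, so smaller changes and spread shared between embryos were not covered. The members and lists were chosen with earlier results of these data known. Near-identical copies were sought with BLAST+ 2.17.0 (at least 98% identity over 150 bases), and names missing from the table were matched by position. DESeq2 1.42.0, other scalings, filters, replicates 1 to 8 or 9 to 16 alone and left-out libraries were tried as alternatives. No replicate pair differed by as little as sampling noise. Whether oocytes share a mother is not given, so p-values measure the spread between these samples.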

Additional observations from a re-analysis of the deposited data

Results flagged for a closer look

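The genotype difference itself changed between adjacent stages for some of the other one-carbon genes, by the edgeR test of genotype by step with Benjamini-Hochberg adjustment over all genes. From the oocyte to 2 cells this was called for 1 of 31 tested genes, beside 3.99% of all genes. Odc1 moved from 116 to 134 CPM in wildtype and from 144 to 88.9 CPM in knockout means, a difference of steps of -0.89 on the log2 scale (SE 0.25, adjusted p = 0.029). From 2 to 4 cells it was called for 8 of 38, beside 15.5% of all genes. Apip went from 227 to 62.2 CPM in wildtype and from 499 to 52.0 CPM in knockout (-1.41, adjusted p = 1.5e-04). Mtap went from 97.0 to 66.4 and from 127 to 31.3 CPM (-1.49, adjusted p = 0.0018). Mtrr, which reactivates Mtr, went from 4.96 to 27.6 and from 9.07 to 16.9 CPM (-1.59, adjusted p = 0.011). Adi1 went from 13.5 to 124 and from 4.85 to 145 CPM (1.63, adjusted p = 0.0046). Shmt1 went from 25.8 to 45.5 and from 15.7 to 76.1 CPM (1.39, adjusted p = 0.0045). Psat1 went from 29.9 to 666 and from 14.97 to 804 CPM (1.19, adjusted p = 0.0068). Mthfs went from 313 to 7.04 and from 268 to 13.7 CPM (1.15, adjusted p = 0.010). The last one called, Gldc, is named after its values were seen (1.39, adjusted p = 0.037). From 4 to 8 cells edgeR called none of 37, beside 2.73% of all genes, with 3 at an unadjusted p under 0.05 and none called by DESeq2.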

How the results depend on the processing

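Of the alternatives for single genes, 824 were counted as unchanged, 72 lost the call and 9 moved beyond 1 SD. Lost calls were counted for network genes only. Members that crossed the threshold, such as Mat2b from the oocyte to 2 cells with DESeq2 (-0.90), are therefore among the 824. Direction reversed for Mtfmt from 4 to 8 cells in wildtype, with 0.11 in replicates 1 to 8, and the cause was not tested. Splitting the replicates leaves fewer samples. The counts that follow are given without the share of all genes called in the same setting. They therefore do not show whether these genes changed more than others. With replicates 1 to 8 the counts of network genes called by genotype were 3 at 2 cells, 0 at 4 cells and 0 at 8 cells, and with replicates 9 to 16 they were 1 in oocytes, 1 at 2 cells, 1 at 4 cells and 0 at 8 cells. Members called by genotype then numbered 1 at 2 cells in replicates 1 to 8, and in replicates 9 to 16 0 at 2 cells and 0 at 4 cells, in place of 4 and 3. In replicates 1 to 8, 1 member passed from the oocyte to 2 cells and 0 from 4 to 8 cells, in place of 2 each. From 4 to 8 cells 4 and 5 network genes passed in the splits, in place of 8, and genotype by step gave 2 and 0 from the oocyte to 2 cells and 1 and 1 from 2 to 4 cells, in place of 1 and 8. DESeq2 called 8 network genes by genotype in oocytes and 8 at 4 cells, 3 for genotype by step from the oocyte to 2 cells, and 1 member at that step. RLE factors gave 1 member at 8 cells by genotype and 1 from the oocyte to 2 cells. Library totals only gave 0 members at that step and 2 network genes at 8 cells by genotype. These scalings shifted the median of all genes by up to 0.43 on the log2 scale from the oocyte to 2 cells. From 2 to 4 cells RLE factors shifted this median by -0.28 in wildtype and -0.35 in knockout. Library totals only shifted it the other way, by 0.28 and 0.32. Without a filter 5 members and 30 network genes passed from the oocyte to 2 cells, 0 for genotype by step there, and 2 network genes by genotype at 8 cells. At 10 CPM in at least 16 libraries, 1 member passed from the oocyte to 2 cells, 1 at 8 cells by genotype, 5 network genes from 4 to 8 cells and 2 for genotype by step from the oocyte to 2 cells. Leaving out knockout oocyte replicate 15 gave 9 network genes and 1 member in oocytes, and 3 network genes for genotype by step from the oocyte to 2 cells. Leaving out 4-cell wildtype replicate 11 gave 7 network genes at 4 cells. The choice to leave out 4-cell wildtype replicate 11 and 8-cell knockout replicate 7 was made after seeing the data. Same-numbered samples did not deviate together, as 5, 3, 2 and 3 pairs had a correlation over 0.1 by stage, so the numbers only name samples. The replicate block gave 2 members at 2 cells, 1 network gene at 8 cells by genotype and 0 for genotype by step from the oocyte to 2 cells. Of the 6 genes most like Bhmt, 0 were among the first 6 by Spearman correlation, 1 by group means and 3 with a pseudocount of 0.1. At 8 cells Mat2b stood at 1.20 by genotype and at 0.03 by DESeq2. Depth limits Ahcy at every stage, Bhmt and Bhmt2 up to 2 cells and Shmt2 from 4 cells, where values rest on few counts.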
